A study of Mus musculus with 3 samples.

Results

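The subject here is a set of 8 genes of bone morphogenetic protein (BMP) signalling: Id1, Id2, Id3, Id4, Bmp4, Bmpr1a, Smad6 and Smad7. They were chosen by symbol, each symbol matched 1 row, and they are 8 of the 31053 genes counted in each of 3 mouse single-cell libraries. Each group is 1 library of cultured C57BL/6 cortical cells, fixed in methanol and run on the 10x Genomics system. The library labelled MIM-Astrocytes holds astrocytes moved to MIM, whose base has no serum and contains B27, N2 and 20 ng/mL FGF2, with up to 6 metabolites (the amino acids glycine, cysteine, methionine and threonine, the polyamine putrescine and the methyl donor S-adenosylmethionine), and collected by day 5. The library labelled Astrocyte holds astrocytes kept in a differentiation medium with 10% serum and B27. The library labelled NSC holds neural stem cells from cortex, grown as neurospheres with EGF and FGF2 at 20 ng/mL and B27. The labels give neither the metabolite combination nor the day of this MIM library, and they describe both a postnatal and a neurosphere source for astrocytes, while all 3 libraries carry the age label embryonic day 14.5. MIM-treated and untreated astrocytes therefore differ in serum, FGF2, base medium and metabolites at once, and these cannot be told apart.

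BMPs are secreted ligands that bind paired type I and type II receptor kinases. The activated type I receptor phosphorylates SMAD1, SMAD5 and SMAD9, which enter the nucleus with SMAD4 and switch on target genes, among them the Id genes and the inhibitory SMADs. ID proteins lack a DNA-binding domain and hold E proteins and other basic helix-loop-helix (bHLH) factors away from DNA, and in the developing cortex BMP signalling is known for promoting astrocyte differentiation together with the LIF and STAT3 pathway.

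Upstream sequences are shown for Id2 and Id4, whose levels across the libraries followed each other most closely among the Id genes, and for the inhibitor Smad6. RefSeq promoter windows (GRCm38.p6) were matched for 6 members, and the stretches printed are those before any exon that GENCODE gives the same gene. For Id2 this was 89 bases at chr12:25096254-25096342 (minus strand), which lie in an intron of a longer Id2 transcript. For Id4 it was 250 bases at chr13:48260866-48261115 (plus strand), and for Smad6 250 bases at chr9:64022060-64022309 (minus strand). Capitals mark GGCGCC, a GC-rich element known to bind SMAD1 and SMAD5, and GTCT or its reverse complement AGAC, the core SMAD box.
Id2: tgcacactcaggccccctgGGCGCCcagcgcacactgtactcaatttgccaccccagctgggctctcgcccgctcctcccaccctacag
Id4: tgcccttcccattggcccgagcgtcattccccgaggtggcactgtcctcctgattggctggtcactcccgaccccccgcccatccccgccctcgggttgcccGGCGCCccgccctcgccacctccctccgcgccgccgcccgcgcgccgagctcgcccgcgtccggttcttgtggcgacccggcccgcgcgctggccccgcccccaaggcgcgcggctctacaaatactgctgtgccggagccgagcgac
Smad6: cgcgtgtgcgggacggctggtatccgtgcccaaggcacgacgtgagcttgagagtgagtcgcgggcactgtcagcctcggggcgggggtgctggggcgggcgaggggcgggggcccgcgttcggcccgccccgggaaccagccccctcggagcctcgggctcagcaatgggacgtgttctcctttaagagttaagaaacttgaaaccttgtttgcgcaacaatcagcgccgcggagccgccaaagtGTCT

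In the stretches printed, Id2 and Id4 each held 1 GGCGCC and Smad6 held 1 GTCT, on either strand. Of the matched windows not printed, that of Bmpr1a held 1 GGCGCC and that of Bmp4 held 0. The window of Id3 held 0 GGCGCC, and all of its 250 bases lie in exons of the gene. GTCT or AGAC was found 2 times for Id3, 1 time for Bmp4 and 0 times for Bmpr1a. Over 32851 RefSeq windows of 250 bases, 9.59% held GGCGCC and 82.9% held GTCT or AGAC, so the Smad6 match is one that most windows share. Over the same 89 bases as Id2, 2.73% of the windows held GGCGCC. The 250-base windows of Id2, Id4 and Bmpr1a were 62.8%, 75.6% and 78.8% G and C, against a median of 52.4% over all windows. The shares over all windows were not matched for this. These matches describe letters in a window and were not tested as sites.

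After filtering, the MIM-treated library held 14964 cells and 50906724 unique molecular identifiers (UMIs, counts of captured molecules), the untreated astrocytes 9818 cells and 50594420 UMIs, and the neural stem cells 9145 cells and 14689259 UMIs, with medians of 3156, 5089 and 1379 UMIs per cell in the same order. Between 25 and 43 cell barcodes were shared by any 2 libraries. Malat1, a nuclear RNA, made up 9.44% of UMIs in MIM-treated astrocytes, 13.7% in untreated astrocytes and 26.9% in neural stem cells. Of 10 astrocyte markers all 10 were detected in each library, summing to 1156, 2143 and 729 CPM in that order (CPM is 1000000 times a gene's share of its library's UMIs), and the defining marker Gfap stood at 4.05 CPM in MIM-treated astrocytes, 271 CPM in untreated astrocytes and 1.16 CPM in neural stem cells. Other markers of that list went the other way, with Slc1a3 at 363, 206 and 385 CPM, and Slc4a4 and S100b also higher in MIM-treated than in untreated astrocytes. Markers of other cells are given beside the pathway lists. Levels below are CPM over all cells of 1 library, with exact 95% intervals in brackets that cover counting error only. There are no replicates, so there is no test and no spread between cultures, and a gene is called higher or lower where its log2 ratio, with 1 CPM added to each level, is at least 1 in size and both libraries together hold at least 20 UMIs.

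All 4 Id genes were far lower in MIM-treated than in untreated astrocytes. Id3 (ENSMUSG00000007872, mm10 chromosome 4, 136143497 to 136145755) was at 35.9 CPM (34.3 to 37.6) in MIM-treated astrocytes, 1378 CPM (1368 to 1389) in untreated astrocytes and 56.0 CPM (52.3 to 60.0) in neural stem cells. Id1 (ENSMUSG00000042745, chromosome 2, 152736251 to 152737410) was at 10.9 CPM (10.0 to 11.9) in MIM-treated astrocytes, 328 CPM (323 to 333) in untreated astrocytes and 12.2 CPM (10.5 to 14.1) in neural stem cells. Untreated astrocytes stood apart for both genes, and for Id1 the intervals of the other two libraries overlapped. Against untreated astrocytes, Id3 had a log2 ratio of −5.22, which is 38.4-fold lower (36.6 to 40.2), and Id1 one of −4.79, 30.0-fold lower (27.6 to 32.7).

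Id2 and Id4 had the same order with smaller distances. Id2 (ENSMUSG00000020644, chromosome 12, 25093799 to 25097140) was at 26.7 CPM (25.3 to 28.2) in MIM-treated astrocytes, 277 CPM (272 to 282) in untreated astrocytes and 46.8 CPM (43.4 to 50.5) in neural stem cells. Id4 (ENSMUSG00000021379, chromosome 13, 48261228 to 48266026) was at 18.4 CPM (17.2 to 19.6) in MIM-treated astrocytes, 203 CPM (199 to 207) in untreated astrocytes and 31.6 CPM (28.8 to 34.6) in neural stem cells. No 2 libraries overlapped in their intervals for either gene. MIM-treated against untreated astrocytes, Id2 was 10.4-fold lower (9.80 to 11) and Id4 11-fold lower (10.3 to 11.8), at log2 ratios of −3.33 and −3.39.

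**Figure D1:**
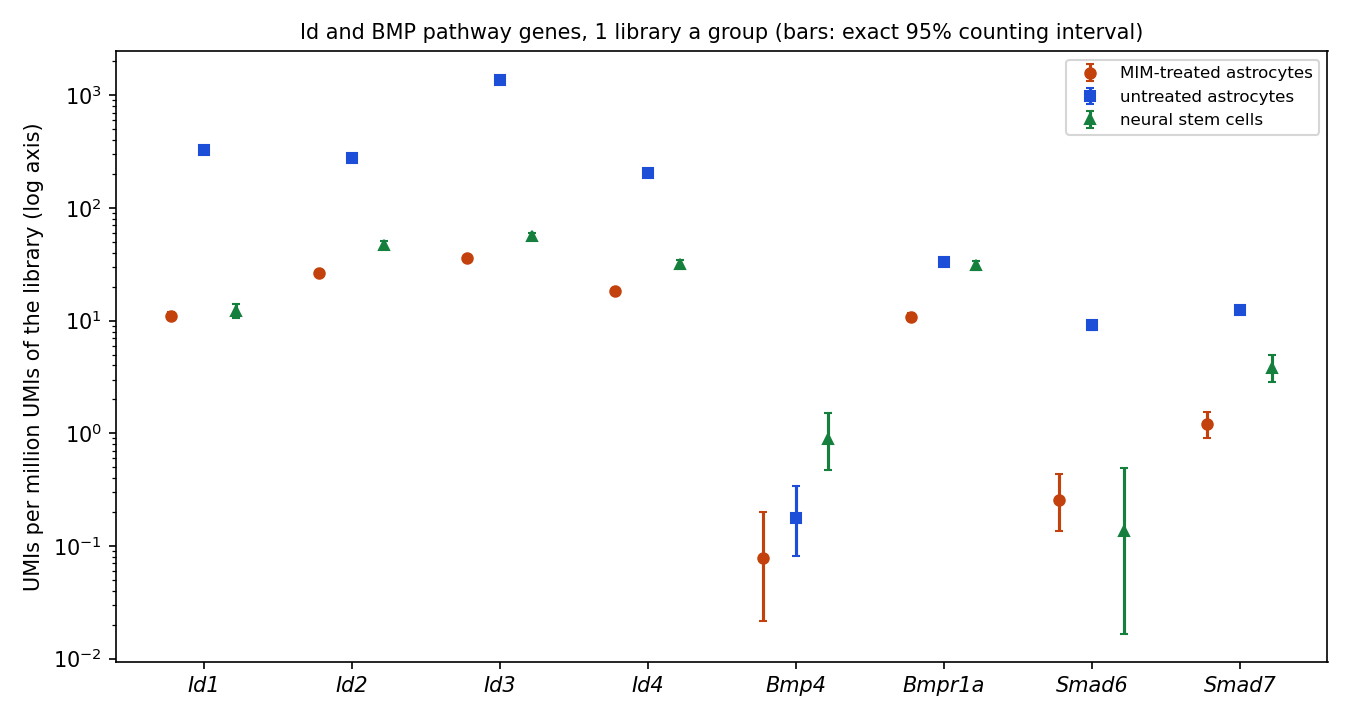
Level of each of the 8 genes in MIM-treated astrocytes (circles), untreated astrocytes (squares) and neural stem cells (triangles), in CPM on a log axis, 1 library a group, with exact 95% counting intervals. Each Id gene is highest in untreated astrocytes, Bmpr1a is close to equal in untreated astrocytes and neural stem cells, and Bmp4 is under 1 CPM in all 3 libraries.

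The BMP receptor and both inhibitory SMADs were lower in MIM-treated astrocytes as well. Bmpr1a (ENSMUSG00000021796, chromosome 14, 34410734 to 34503341), a type I BMP receptor, was at 10.7 CPM (9.86 to 11.7) in MIM-treated astrocytes, 33.3 CPM (31.7 to 34.9) in untreated astrocytes and 30.9 CPM (28.1 to 33.9) in neural stem cells. Smad6 (ENSMUSG00000036867, chromosome 9, 63953076 to 64022059), an inhibitory SMAD that acts mainly on the BMP branch, was at 0.255 CPM (0.136 to 0.437) in MIM-treated astrocytes, 9.09 CPM (8.28 to 9.96) in untreated astrocytes and 0.136 CPM (0.0165 to 0.492) in neural stem cells. Smad7 (ENSMUSG00000025880), which inhibits both the BMP and the TGF-beta branch, was at 1.20 CPM (0.917 to 1.54) in MIM-treated astrocytes, 12.4 CPM (11.4 to 13.4) in untreated astrocytes and 3.81 CPM (2.88 to 4.95) in neural stem cells. Smad6 and Smad7 were thus high in untreated astrocytes, like the Id genes, while Bmpr1a was low in MIM-treated astrocytes and had overlapping intervals in the other two. MIM-treated against untreated astrocytes, Bmpr1a was 3.1-fold lower (2.81 to 3.42), Smad6 35.6-fold lower (20.6 to 67.4) and Smad7 10.3-fold lower (7.93 to 13.7). Smad6 rests on 13 UMIs in MIM-treated astrocytes and 2 in neural stem cells.

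The ligand gene Bmp4 (ENSMUSG00000021835, chromosome 14, 46383520 to 46390669) was barely detected. It had 4 UMIs in MIM-treated astrocytes, 9 in untreated astrocytes and 13 in neural stem cells, or 0.0786 CPM (0.0214 to 0.201), 0.178 CPM (0.0813 to 0.338) and 0.885 CPM (0.471 to 1.51) in that order. It was highest in neural stem cells, and the intervals of the 2 astrocyte libraries overlapped. With 13 UMIs over both astrocyte libraries it did not reach the 20 needed for a call between them.

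In MIM-treated against untreated astrocytes 7 of the 8 members were lower and 0 higher, and Bmp4 was not measured, beside 15.2% of 13876 measured genes lower and 8.49% higher (23.7% called either way). Of the 2895 genes with at least 50 CPM in either library, 17.5% were lower and 14.7% higher (32.3% either way), and the 4 Id genes, the members at that level, were all lower. The 7 log2 ratios lay between −5.22 and −1.55, against a median of −0.19 over all measured genes. With TMM scaling that median moved by 0.18 and 49.6% of all calls were higher, against 35.9% with library totals, and the 7 calls stayed. The calls of Smad6 and Smad7 were lost with 10 CPM added in place of 1 CPM (log2 ratios of −0.90 and −0.998).

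In MIM-treated astrocytes against neural stem cells 2 members were lower, 0 higher, 4 neither, and Bmp4 and Smad6 were not measured, beside 20.5% of 13097 measured genes lower and 9.29% higher (29.8% either way). Bmpr1a was 2.88-fold lower (2.53 to 3.26) and Smad7 3.18-fold lower (2.17 to 4.65), at log2 ratios of −1.44 and −1.13. None of the Id genes was called. Their log2 ratios were −0.15 for Id1, −0.79 for Id2, −0.63 for Id3 and −0.75 for Id4, beside a median of −0.24 over all measured genes. Id3 was the 1 member with at least 50 CPM in either of these libraries, where 36.5% of 2830 such genes were called (20.3% higher, 16.2% lower). The call of Smad7 was lost under TMM scaling and that of Bmpr1a with 10 CPM added (−0.98), and without Malat1 in the totals Id2 (−1.09) and Id4 (−1.05) were called lower, while Id1 lay between −0.44 and 0.22 over all alternatives. TMM scaling moved the median of all genes by 0.31 and made 59.7% of calls higher, and totals without Malat1 moved it by −0.26 and made 16.1% higher, against 31.1% with library totals.

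In untreated astrocytes against neural stem cells 6 members were higher and 0 lower, with Bmp4 and Bmpr1a neither, beside 19.9% of 13647 measured genes higher and 22.6% lower (42.4% either way). Of the 3192 genes with at least 50 CPM in either library, 31.2% were higher and 22.9% lower (54.2% either way), and the 4 Id genes were all higher. Id1 was 26.9-fold higher (23.2 to 31.4), Id3 24.6-fold (23.0 to 26.4), Id4 6.42-fold (5.85 to 7.06) and Id2 5.91-fold (5.48 to 6.39). Id1 and Id3 thus formed a pair with large ratios, and Id2 and Id4 a pair with smaller ones. Smad7 was 3.25-fold higher (2.47 to 4.35), and Smad6 had a ratio of 66.8 with a counting interval from 18.4 to 553. The calls of Smad6 and Smad7 were lost with 10 CPM added (log2 ratios of 0.91 and 0.70), and with a minimum of 50 CPM, which left 4 members higher. The 3 comparisons share libraries, so their values are given side by side and their likeness is no result.

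Measured as shares of cells, the Id genes were common in untreated astrocytes and rare in both other libraries. To remove depth per cell, each cell was thinned to 1000 UMIs, which left 13991 MIM-treated astrocytes, 9467 untreated astrocytes and 7688 neural stem cells and dropped 973, 351 and 1457 shallower cells in that order. Id3 had at least 1 UMI in 3.25% of MIM-treated astrocytes (2.96 to 3.56), 66.0% of untreated astrocytes (65.0 to 66.9) and 4.31% of neural stem cells (3.86 to 4.78). Id1 had one in 1.04% (0.875 to 1.22), 25.9% (25.0 to 26.8) and 1.13% (0.907 to 1.39) in the same order. Without thinning the shares of Id3 were 9.48%, 92.0% and 6.74%, and those of Id1 3.45%, 66.7% and 1.77%. Between MIM-treated astrocytes and neural stem cells the order of both genes therefore turns with depth, and the thinned intervals of Id1 overlap. No cluster is known to lack the Id genes, so a background share from free RNA could not be set.

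Id2 had a UMI in 2.77% of thinned MIM-treated astrocytes (2.50 to 3.05), 23.2% of untreated astrocytes (22.3 to 24.0) and 4.08% of neural stem cells (3.65 to 4.55). Id4 had one in 1.73% (1.52 to 1.96), 18% (17.3 to 18.8) and 2.91% (2.55 to 3.31) in that order. Bmpr1a had one in 1.19% of MIM-treated astrocytes (1.02 to 1.39), 3.26% of untreated astrocytes (2.92 to 3.64) and 3.30% of neural stem cells (2.92 to 3.73). Unthinned, the shares in that order were 8.20%, 64.2% and 6.41% for Id2, 5.63%, 58.3% and 4.48% for Id4, and 3.58%, 15.4% and 4.83% for Bmpr1a. Smad7 had a UMI in 0.10%, 1.29% and 0.364% of thinned cells and in 0.408%, 5.91% and 0.612% of all cells. Smad6 was found in 1 thinned MIM-treated cell, 91 untreated astrocytes (0.961%) and 1 neural stem cell, and Bmp4 in 2, 1 and 5 cells.

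Cells with several UMIs of Id3 were rare outside untreated astrocytes. After thinning, 3 or more UMIs of Id3 were found in 0.0286% of MIM-treated astrocytes, 19.1% of untreated astrocytes and 0.0911% of neural stem cells. At least 1 of the 4 Id genes was found in 8.53% of MIM-treated astrocytes (8.08 to 9.01), 83.1% of untreated astrocytes (82.3 to 83.8) and 11.7% of neural stem cells (11 to 12.5). At least 2 were found in 0.250% (0.174 to 0.348), 39.8% (38.8 to 40.8) and 0.663% (0.494 to 0.871) in that order. All 4 were found together in 0 of 13991 MIM-treated astrocytes, which allows a share of up to 0.0214%, in 79 untreated astrocytes (0.834%), and in 0 of 7688 neural stem cells, which allows up to 0.0390% with a UMI of all 4 at this depth. Without thinning all 4 were found in 0 of 14964 MIM-treated astrocytes, 28.2% of untreated astrocytes and 4 of 9145 neural stem cells (0.0437%).

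**Figure D2:**
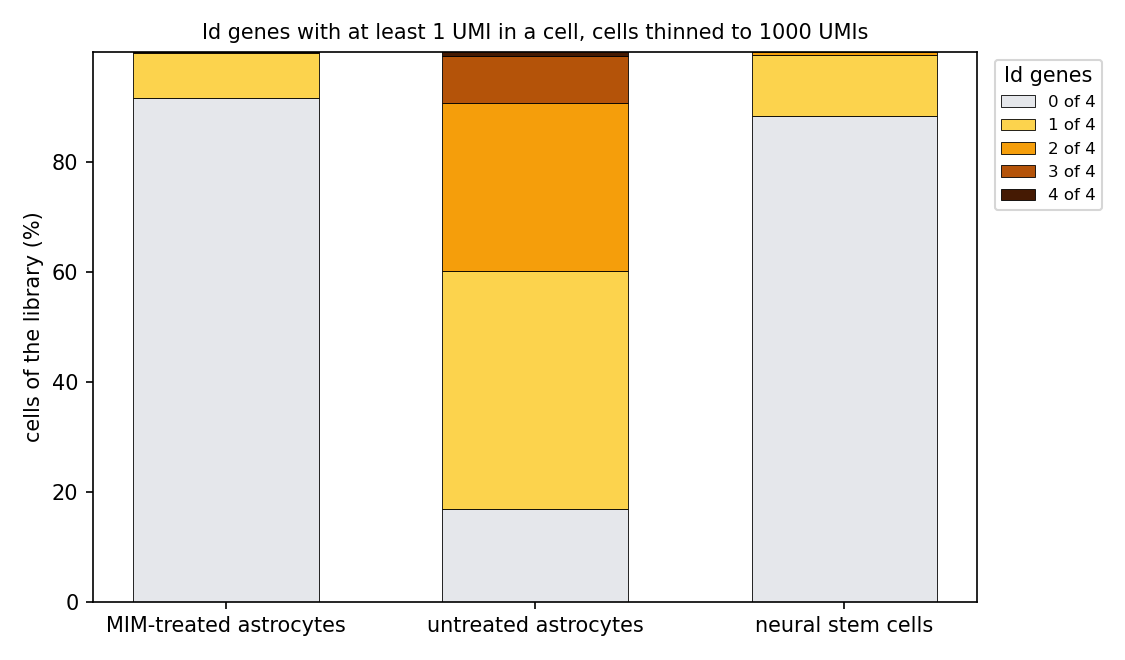
Share of cells (%) with a UMI of 0 to 4 Id genes after thinning to 1000 UMIs, for MIM-treated astrocytes, untreated astrocytes and neural stem cells. Cells with no Id UMI make up 91.5% of MIM-treated astrocytes, 16.9% of untreated astrocytes and 88.3% of neural stem cells.

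In untreated astrocytes the number of cells with both members of a pair was close to the product of their separate shares. For each pair the number of thinned cells with both genes was set against the product of the 2 shares, for pairs with at least 10 cells given by that product. This held for 1 pair in MIM-treated astrocytes, 18 in untreated astrocytes and 3 in neural stem cells. In untreated astrocytes the ratios lay between 0.914 and 1.27 with a median of 1.03. A ratio near 1 is partly fixed where a gene is common, as Id3 is in 66.0% of cells. The odds ratio compares the odds of the second gene in cells with and without the first. It lay between 1.03 (Id1 and Id4) and 1.22 (Id1 and Id3) for pairs of Id genes, and between 0.896 and 1.36 for the other pairs. With cells thinned to 2000 UMIs, Id1 and Id3 had an odds ratio of 1.37 and Id1 and Id4 one of 0.991. Id1 and Id3 were found together in 1697 untreated astrocytes, against 1617 given by the product, a ratio of 1.05 (1.00 to 1.10). In neural stem cells Id2 and Id3 shared 21 cells against 13.5 (ratio 1.55, 0.962 to 2.37), and Id2 and Bmpr1a shared 17 against 10.4 (ratio 1.64, 0.955 to 2.62). The third pair of that library, Id3 and Bmpr1a, shared 9 cells against 10.9 (ratio 0.823, 0.376 to 1.56). The single pair in MIM-treated astrocytes, Id2 and Id3, shared 12 cells against 12.6 (ratio 0.953, 0.493 to 1.67). These are Poisson intervals of the shared cells with the product held fixed. For genes found in many cells they are wider than the counting error of the ratio, so taking in 1 does not show independence. The interval took in 1 for each of these 22 pairs. In non-dividing neural stem cells alone that of Id2 and Id3 did not (21 cells against 12.6, ratio 1.66, 1.03 to 2.54). This is 1 interval picked from those of 22 pairs over several settings. With cells thinned to 2000 UMIs this pair shared 18 cells against 15.3 (ratio 1.17, 0.696 to 1.85). Without the 8% of cells with the most UMIs it shared 20 against 12.5 (ratio 1.60, 0.977 to 2.47). With the product taken within each cluster of cells, the ratio of Id2 and Id3 in neural stem cells was 1.38. Smad6 and Smad7 shared 4 untreated astrocytes against 1.17, too few to compare.

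**Figure D3:**
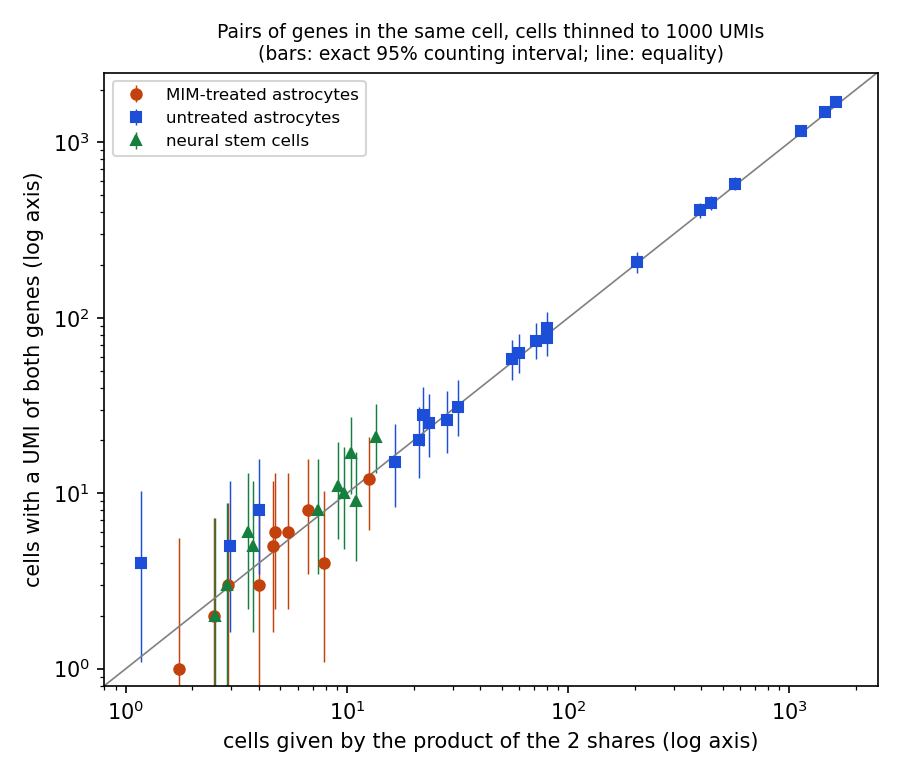
Cells with a UMI of both genes of a pair (vertical) against the number given by the product of the 2 shares (horizontal), both on log axes, in MIM-treated astrocytes (circles), untreated astrocytes (squares) and neural stem cells (triangles). Bars are exact 95% Poisson intervals of the shared cells. Drawn are pairs with at least 1 cell by the product and at least 1 shared cell. Pairs with 0 shared cells are left out, such as Id2 and Smad7 in neural stem cells (0 against 1.14). The pairs of Id genes in untreated astrocytes lie close to the line of equality, up to 1697 cells.

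To see how the members vary among cells, each library was clustered on its own with the members and all pathway genes left out. In untreated astrocytes the Id genes were high in every cluster. Over the 5 clusters of at least 100 cells, Id3 lay between 1077 and 1455 CPM, Id1 between 236 and 350 CPM, Id2 between 172 and 305 CPM, and Id4 between 132 and 219 CPM. The largest cluster, led by the contractile genes Tagln and Acta2, had Id3 at 1342 CPM (1329 to 1355), and the astrocyte-like cluster, with Gja1, Gfap and Aqp4, had 1455 CPM (1437 to 1474). The cluster led by interferon response genes such as Isg15 had 1447 CPM (1373 to 1525). The Id genes thus differed less between clusters of untreated astrocytes than between that library and either other one. In the cluster led by Ncan and Neat1 Bmpr1a was high, at 67.5 CPM (50.4 to 88.5) against 31.4 CPM (28.8 to 34.2) in the astrocyte-like cluster. Smad6 (14.3 CPM) and Smad7 (20.8 CPM) were also highest there, while Id3 and Id1 had their lowest values. At clustering resolutions 0.3 and 1.0 Bmpr1a was highest instead in a shallow cluster led by Nes and Gm42418, at 65.3 and 67.0 CPM. The Ncan and Neat1 cluster of 337 cells had a median of 4.13% mitochondrial UMIs and 1967 UMIs per cell. What part these have in the result was not tested.

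In MIM-treated astrocytes the Id genes differed from each other in where they were highest. Id3 stood at 51.6 CPM (48.2 to 55.2) in the 2 dividing clusters together and at 28.4 CPM (26.6 to 30.2) in the other clusters, a ratio of 1.82 (1.66 to 2.00). Id1 was at 15.9 CPM (14.1 to 18) in dividing and 8.50 CPM (7.55 to 9.53) in non-dividing cells, a ratio of 1.88 (1.58 to 2.22). Id4 went the other way, at 12.4 CPM (10.8 to 14.3) in dividing and 21.3 CPM (19.8 to 22.9) in non-dividing cells. Id2 had overlapping intervals at 25.1 CPM (22.8 to 27.7) in dividing and 27.5 CPM (25.8 to 29.3) in non-dividing cells. Bmpr1a, at 11.6 CPM in dividing and 10.3 CPM in non-dividing cells, also overlapped. Untreated astrocytes had no dividing cluster. In neural stem cells the intervals of all 4 Id genes overlapped between dividing and non-dividing cells, with Id3 at 48.7 CPM (39.7 to 59.2) and 57.2 CPM (53.1 to 61.6).

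Among the non-dividing MIM-treated cells, Id4 was highest in the largest cluster, led by the astrocyte genes Aldoc, Sparcl1 and Slc4a4, at 26.6 CPM (24.5 to 28.8), and lowest in the cluster led by Lhfpl3 and Draxin, at 8.14 CPM (5.93 to 10.9). Id2 was highest in that Lhfpl3 cluster, at 39.2 CPM (34.2 to 44.8). Id3 was highest in the cluster led by Wnt4, at 58.9 CPM (52.7 to 65.6), and stood at 22.7 CPM (20.8 to 24.8) in the Aldoc cluster. None of these 3 clusters held the 3 markers needed for a cell type name. Their median depths were 3916 UMIs in the Aldoc cluster, 1807 in the Lhfpl3 cluster and 2764 in the Wnt4 cluster.

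In neural stem cells the Id genes differed between 2 named clusters. In the astrocyte-like cluster (4346 cells, with Slc4a4, Gja1 and Slc1a2 among its markers) Id3 stood at 67.5 CPM (61.4 to 74.0), against 11.5 CPM (8.16 to 15.8) in the oligodendrocyte lineage-like cluster (2394 cells, with Pdgfra and Sox10), a ratio of 5.85 (4.20 to 8.38). Id1 had a ratio of 3.89 (2.17 to 7.55), Id4 one of 2.09 (1.59 to 2.77) and Id2 one of 1.40 (1.14 to 1.72) between the same clusters. Bmpr1a was 1.52-fold higher (1.17 to 1.99) in astrocyte-like cells, and Smad7 overlapped, at 3.46 CPM (2.19 to 5.19) and 4.86 CPM (2.78 to 7.89). After thinning, 6.19% of astrocyte-like and 0.917% of oligodendrocyte lineage-like cells had a UMI of Id3, and 4.86% and 3.47% one of Id2. The clusters were close in depth, with medians of 1407 and 1303 UMIs. A cluster of 186 neural stem cells led by Ubb, Jund and Ier3 had the highest Id3 of that library, 276 CPM, at a median of 2541 UMIs. It also had the highest Id1, Id2 and Id4, at 22.4, 81.0 and 48.2 CPM. At clustering resolution 1.0 Id4 was highest instead in an astrocyte-like cluster, at 75.9 CPM.

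**Figure D4:**
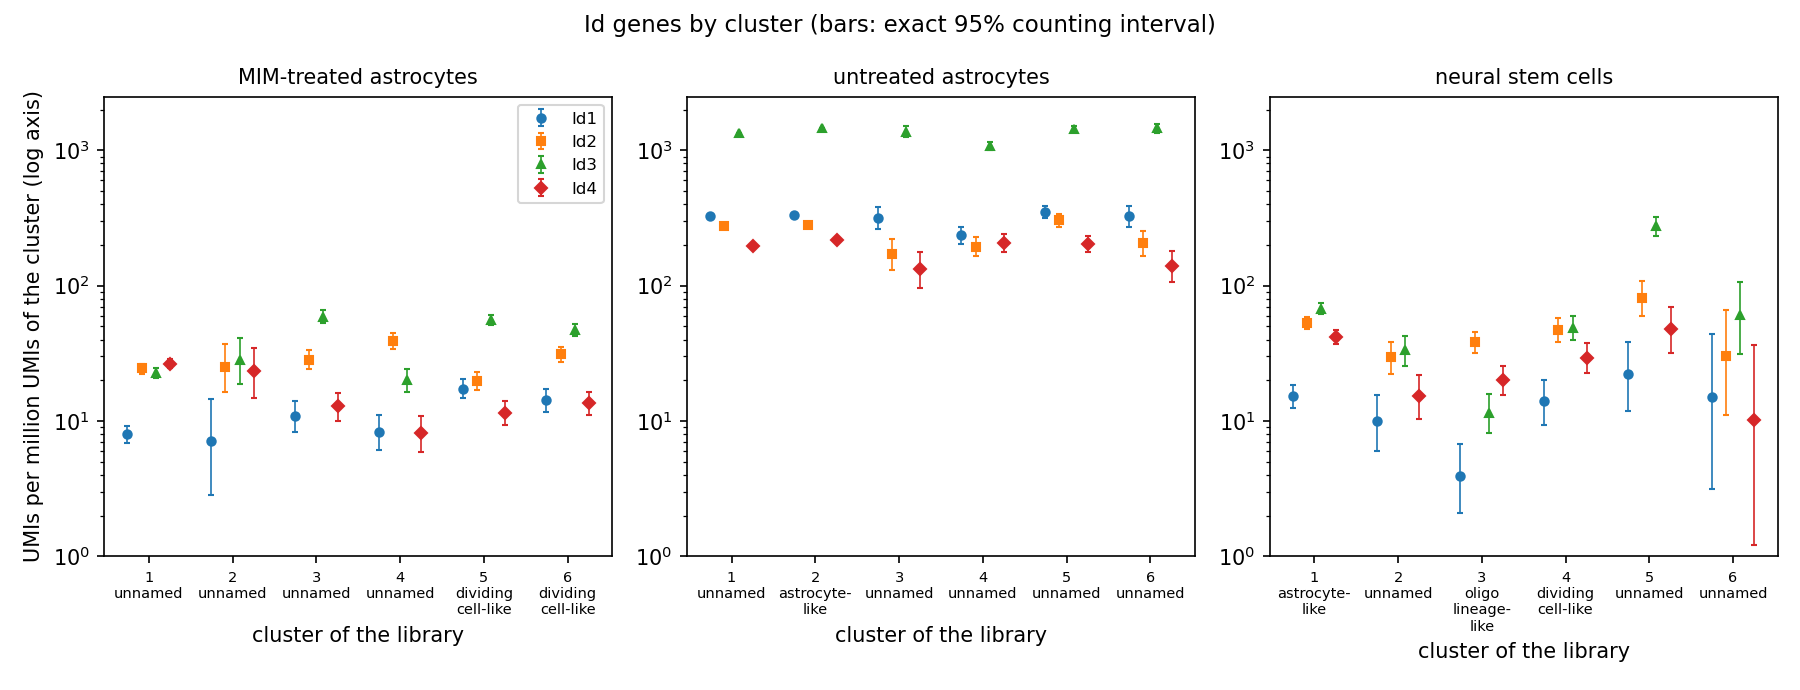
Level of Id1, Id2, Id3 and Id4 in each cluster of MIM-treated astrocytes, untreated astrocytes and neural stem cells, in CPM of the cluster on a log axis with exact 95% counting intervals. Id3 is at least 1077 CPM in every cluster of untreated astrocytes and reaches 276 CPM in 1 small cluster of neural stem cells.

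The rest of the pathway was described through 8 lists of 106 genes, whose counts are to be read beside the shares over all measured genes: 15.2% lower and 8.49% higher in MIM-treated against untreated astrocytes, 20.5% lower and 9.29% higher in MIM-treated astrocytes against neural stem cells, and 22.6% lower and 19.9% higher in untreated astrocytes against neural stem cells. Ligands were little detected. Of 15 ligand genes 4 were measured between MIM-treated and untreated astrocytes, with 1 lower and 0 higher. That gene was Bmp6, at 0.354 CPM in MIM-treated astrocytes, 15.3 CPM in untreated astrocytes and 0.0681 CPM (1 UMI) in neural stem cells. It was 43.4-fold lower (27.3 to 73.6) in MIM-treated than in untreated astrocytes, and higher in untreated astrocytes than in neural stem cells. Bmp3 and Bmp7, which are below the 10 CPM set for naming and are named because they are the only others called, were lower in MIM-treated cells than in neural stem cells, with Bmp3 at 30 UMIs (0.589 CPM) in MIM-treated astrocytes, 0 in untreated astrocytes and 129 (8.78 CPM) in neural stem cells. Bmp7 stood at 0.864, 0.810 and 5.24 CPM in that order, and both genes were also lower in untreated astrocytes than in neural stem cells.

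Of 9 measured receptors and co-receptors 2 were lower and 0 higher in MIM-treated than in untreated astrocytes, Bmpr1a and Neo1, a receptor for RGM co-receptors (2.10-fold lower, 1.92 to 2.29). Against neural stem cells 5 of 9 were lower in MIM-treated astrocytes. Among them Acvr2b, a type II receptor, stood at 1.98 CPM in MIM-treated astrocytes, 2.00 CPM in untreated astrocytes and 15.5 CPM in neural stem cells. Bmpr1b, another type I BMP receptor, stood at 4.56, 6.88 and 22.5 CPM, and the co-receptor Rgma at 19.9, 20.1 and 82.0 CPM, in that order. All 3 were also lower in untreated astrocytes than in neural stem cells, where 4 of 9 receptors were lower and 0 higher. These 3 receptor genes were thus lower than in neural stem cells in both astrocyte libraries, whereas Bmpr1a was lower only in the MIM-treated one. With TMM scaling the call of Neo1 between the astrocyte libraries was lost.

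Several extracellular antagonists were highest in untreated astrocytes. Nog, encoding the BMP-binding antagonist noggin, was at 2.71 CPM (138 UMIs) in MIM-treated astrocytes, 152 CPM in untreated astrocytes and 4.29 CPM in neural stem cells. Nbl1, a DAN family antagonist, stood at 23.5, 289 and 30.0 CPM, and Fstl1, a follistatin-like secreted protein, at 24.5, 81.6 and 13.2 CPM, in the same order. Between MIM-treated and untreated astrocytes 6 of 11 measured antagonists and modulators were lower, 1 higher and 4 neither (list median −1.01, log2), and Nog was 56.0-fold lower (47.3 to 66.7). The gene called higher was Bmper, at 66 UMIs in MIM-treated and 7 in untreated astrocytes, below the level set for naming. In untreated astrocytes against neural stem cells 6 of 11 were higher and 2 lower (list median 1.81). In MIM-treated astrocytes against neural stem cells 0 of 9 were higher and 1 lower, the protease gene Bmp1 (4.88-fold lower, 4.24 to 5.63), although with TMM scaling 3 were higher.

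Among SMAD transducers and inhibitors 6 of 13 were lower and 0 higher in MIM-treated than in untreated astrocytes, 3 of 13 with TMM scaling. Bambi, a decoy receptor, stood at 13.6 CPM in MIM-treated astrocytes, 89.1 CPM in untreated astrocytes and 7.35 CPM in neural stem cells. Against neural stem cells 8 of 12 were lower in MIM-treated astrocytes, and 2 of 12 with TMM scaling. Smad5, a BMP-activated transducer, stood at 9.84 CPM in MIM-treated astrocytes, 6.86 CPM in untreated astrocytes and 31.7 CPM in neural stem cells, and the shared partner Smad4 at 23.5, 19.5 and 56.0 CPM. In untreated astrocytes against neural stem cells 3 of 13 were higher, namely Bambi, Smad6 and Smad7, and 4 lower. Transducers were thus highest in neural stem cells and inhibitors in untreated astrocytes for the genes named here. The share of the nuclear RNA Malat1 was also highest in neural stem cells. Between the astrocyte libraries that share was smaller with MIM treatment, while the CPM of Smad4 and Smad5 went the other way without being called. With Malat1 left out of the totals, the comparison of MIM-treated astrocytes with neural stem cells gave 9 of 12 lower and 0 higher. The list median was then −1.49, against −1.18 with library totals (log2). Any other part of Malat1 in the result was not tested.

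Known BMP target genes moved in the direction of the Id genes. The list holds 6 of the members, so it was also counted without them, and Bambi, Nog, Smad9 and Sostdc1 stand in the lists above as well. Of the 8 measured targets that are not members MIM treatment over no treatment gave 6 lower and 0 higher (list median −2.44, log2), and untreated astrocytes over neural stem cells gave 5 higher and 0 lower (list median 2.41). In MIM-treated astrocytes against neural stem cells 1 of 6 was lower and 0 higher, and the list median of −0.11 turned to 0.15 with TMM scaling. Atoh8, a bHLH gene, stood at 0.511 CPM in MIM-treated astrocytes, 25.9 CPM in untreated astrocytes and 2.72 CPM in neural stem cells, and it is the 1 gene lower in that last count (5.33-fold, 3.17 to 9.10). Hey1, a bHLH repressor, stood at 9.94, 80.8 and 11.5 CPM and was 8.12-fold lower (7.41 to 8.93) in MIM-treated than in untreated astrocytes. With the members counted, 12 of 14 were lower between the astrocyte libraries, with a median of −2.95.

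Among partners of ID proteins and other bHLH factors 4 of 10 measured were higher, 0 lower and 6 neither in MIM-treated against untreated astrocytes (list median 0.83, log2). Olig1, a factor of the oligodendrocyte lineage, stood at 547 CPM in MIM-treated astrocytes, 107 CPM in untreated astrocytes and 580 CPM in neural stem cells. Its relative Olig2 stood at 72.6, 3.36 and 131 CPM in that order, and the Notch target Hes5 at 60.5, 1.38 and 195 CPM. Olig2 was 21.6-fold higher (18.5 to 25.4) and Olig1 5.13-fold higher (4.98 to 5.28) in MIM-treated than in untreated astrocytes. Against neural stem cells 7 of 11 were lower in MIM-treated astrocytes and 0 higher. The E protein genes Tcf4 and Tcf3, whose products ID proteins bind, stood at 124 and 21.4 CPM in MIM-treated astrocytes, 99.1 and 20.3 CPM in untreated astrocytes, and 414 and 69.7 CPM in neural stem cells. In untreated astrocytes against neural stem cells 11 of 11 were lower.

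The LIF and STAT3 branch, which acts beside BMP in astrocyte differentiation, was lower in MIM-treated than in untreated astrocytes for 6 of 8 measured genes, with 0 higher (list median −1.55, log2). Il6st, encoding the shared receptor gp130, stood at 5.60 CPM in MIM-treated astrocytes, 40.2 CPM in untreated astrocytes and 8.10 CPM in neural stem cells. Against neural stem cells 1 of 8 was higher in MIM-treated astrocytes, the kinase gene Jak1 (2.07-fold, 1.96 to 2.20), and 2 were lower, Stat3 and Cntfr. That list's median was −0.20 and turned to 0.06 with TMM scaling. In untreated astrocytes against neural stem cells 5 of 8 were higher and 0 lower.

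In the TGF-beta and activin branch 5 of 15 measured genes were lower in MIM-treated than in untreated astrocytes and 1 higher. The matricellular genes Ctgf and Cyr61 stood at 0.216 and 1.00 CPM in MIM-treated astrocytes, 33.2 and 31.4 CPM in untreated astrocytes, and 0.136 and 0.613 CPM in neural stem cells. The gene called higher was the receptor Tgfbr1, at 8.96 CPM in MIM-treated and 3.48 CPM in untreated astrocytes. Against neural stem cells 3 of 9 were lower in MIM-treated astrocytes and 0 higher, and in untreated astrocytes against neural stem cells 6 of 14 were higher and 4 lower.

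**Figure D5:**
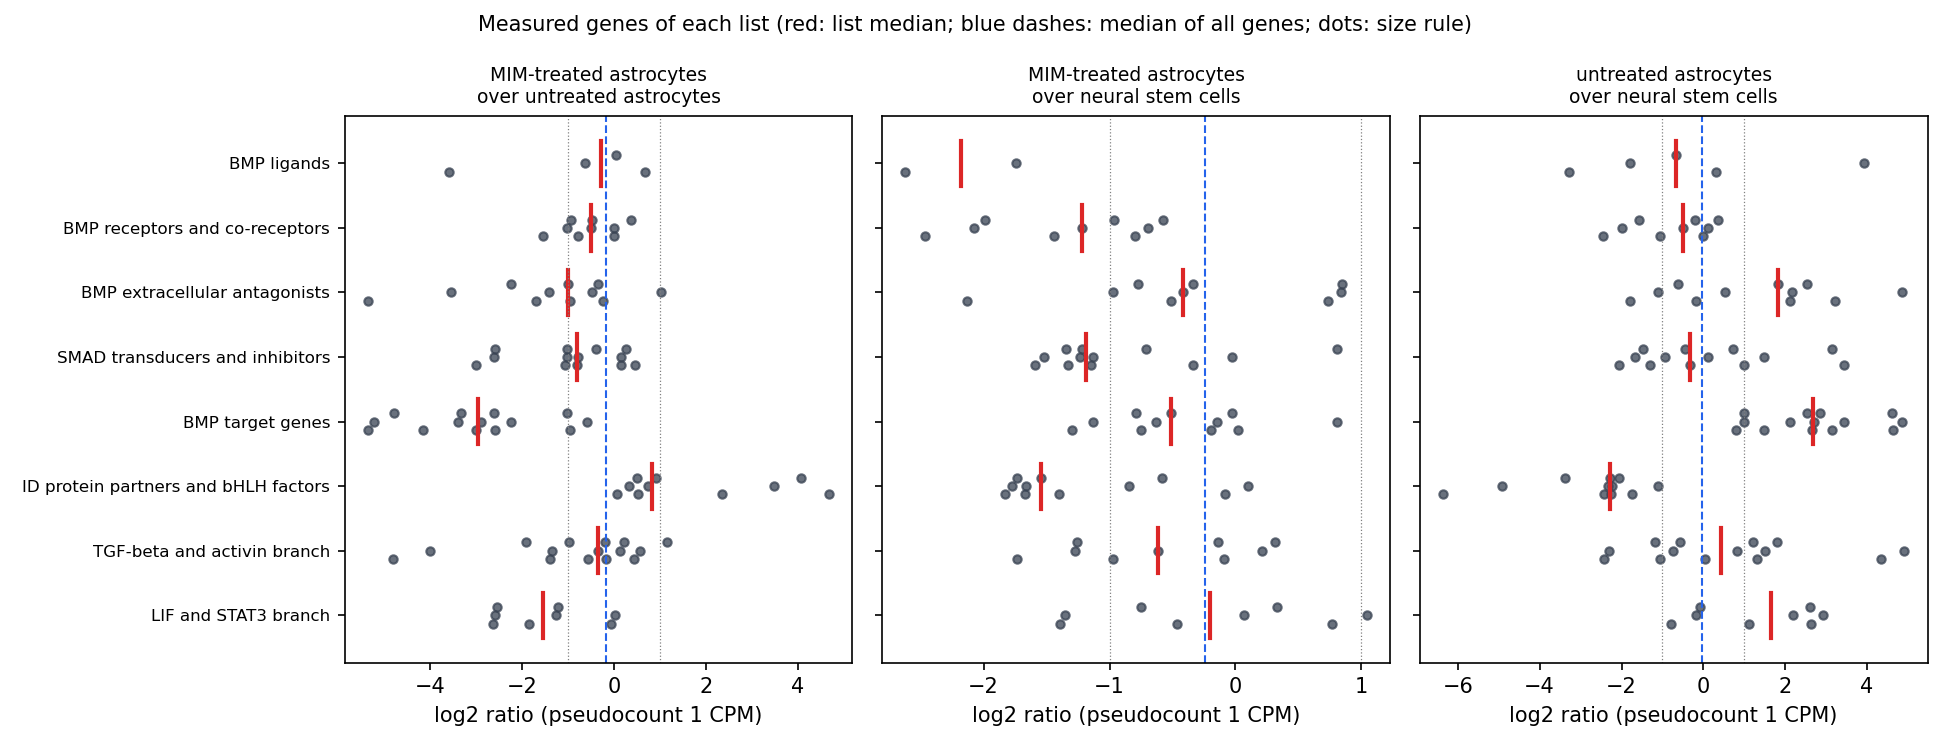
Log2 ratio (1 CPM added) of each measured gene of the 8 lists, for MIM-treated over untreated astrocytes, MIM-treated astrocytes over neural stem cells, and untreated astrocytes over neural stem cells, with the list median in red and the median of all measured genes as a dashed line. BMP target genes have a median of −2.95 in the first panel and 2.68 in the third, and bHLH factors 0.83 and −2.28.

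Over all lists together, 32 of 78 measured genes were lower in MIM-treated than in untreated astrocytes and 6 higher (beside 15.2% and 8.49% over all genes), 29 of 67 lower and 1 higher in MIM-treated cells than in neural stem cells, and 27 of 79 higher and 27 lower in untreated astrocytes than in neural stem cells. Markers of other cells also differed between the libraries. The 10 pericyte, fibroblast and meningeal markers summed to 6.93 CPM in MIM-treated astrocytes, 234 CPM in untreated astrocytes (189 CPM of it from Ogn) and 3.40 CPM in neural stem cells, with 6, 7 and 3 markers detected and Col1a2, Col3a1 and Lum at 0 in all 3 libraries. The 10 endothelial markers summed to 0.491, 1.64 and 1.36 CPM in the same order, with 6, 6 and 5 detected and Cldn5 and Cdh5 at 0 in all 3. The 10 ependymal and choroid markers summed to 22.3, 131 and 7.49 CPM in the same order, and the 15 dividing cell markers to 2657, 16.6 and 687 CPM. The pericyte and ependymal sums were highest, and the dividing cell sum lowest, in the library where the Id genes were highest, and their part in the result was not tested.

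The genes whose levels were most like those of each Id gene were sought over the 3 libraries, as the smallest distance between log2 levels after each gene's own mean was taken off, among 3078 genes. Id2 and Id4 were each other's nearest, at a distance of 0.076. Next for both came the kinase gene Pim3, the secreted ligand gene Gas6 and the surface glycoprotein gene Cd200. Id3 was nearest to Pcp4, a calmodulin-binding protein gene, at 0.11, then to Nog at 0.18 and Tagln at 0.20. Id1 was nearest to Id3, at 0.38, and to Nog, at 0.41. These distances rest on 3 libraries that differ in depth and medium. No correlation of Id1 or Id3 with another gene over the thinned cells of 1 library reached an r of 0.2. The highest was 0.13, for Id3 with Fabp7 in neural stem cells. At this depth Id1 had a UMI in 1.04% of MIM-treated astrocytes and 1.13% of neural stem cells, which keeps r low there. In untreated astrocytes Id3 had a UMI in 66.0% of cells and Id1 in 25.9%. The highest r was low there too, 0.12 for Id3 with Mt1 and 0.047 for Id1 with Id3. What part depth has in this was not tested, so the low values do not show that these genes vary apart from others.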

How the data were processed

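Per the submitters' processing notes, the authors used Cell Ranger 3.0.2 with the mm10 build and Seurat 3.1.1, and the deposited matrices hold UMI counts per gene and cell barcode, read here as raw counts with no normalization. Which filters were applied before deposit is not given in the sources used here.

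Cells with under 200 detected genes or over 20% mitochondrial UMIs were left out (13 MIM-treated astrocytes, 7 untreated astrocytes, 12 neural stem cells). Doublets were kept, and an alternative left out the 8% of cells with the most UMIs. UMIs were summed per library and scaled to CPM. With 1 library a group no test was run, so edgeR 4.0.16 served only for TMM scaling. A gene was called at a log2 ratio of at least 1 in size with 1 CPM added and 20 UMIs over both libraries. Intervals are exact Poisson (levels), binomial (shares) and conditional binomial (ratios of levels) at 95% and cover counting error only. Those of co-occurrence ratios are exact Poisson for the shared cells, with the product held fixed. A count of 0 allows up to 3 counts. Clusters were made per library with Leiden (scanpy 1.11.5) at resolution 0.5 on 2000 variable genes, and a name needed 3 markers among the top 50 genes.

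The members, lists and markers were chosen with earlier results of these data known. Named are the members and, of each list and comparison, up to 4 called genes with at least 10 CPM in either library, largest log2 ratio first. Genes under 10 CPM, and Smad4, Smad5, Tcf3, Bmpr1b, Acvr2b and Rgma in libraries where they were not called, are given as values chosen after they were seen. On simulated counts every gene changed 3-fold was called in each comparison. At 2-fold 32% were called between the astrocyte libraries, 26% for MIM-treated astrocytes and 34% for untreated astrocytes over neural stem cells. The changed genes were drawn only from well-counted genes. The simulation therefore does not cover Bmp4, nor Smad6 and Smad7 against neural stem cells, nor Id1 in MIM-treated astrocytes against neural stem cells. Bmp4 was 4.98-fold lower in untreated astrocytes than in neural stem cells and was not called. Some list genes are not reported here by name.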

Additional observations from a re-analysis of the deposited data

How the results depend on the processing

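The calls of the 4 Id genes in MIM-treated against untreated astrocytes, and in untreated astrocytes against neural stem cells, held in all 13 alternatives, 1 of which (leaving out 1077 MIM-treated and 388 untreated astrocytes of clusters with very low UMI counts) was chosen after seeing the data. That one changed no member's call. In MIM-treated against untreated astrocytes, adding 10 CPM left 17 list genes lower, 540 genes higher and 742 lower, and a minimum of 50 CPM left 4 members lower, 10 list genes lower, 426 genes higher and 508 lower. In MIM-treated astrocytes against neural stem cells, TMM scaling gave 1 member lower, 6 list genes higher, 2237 genes higher and 1510 lower. Totals without Malat1 gave 4 members lower, 0 list genes higher and 772 genes higher. Adding 0.5 CPM, and leaving out the 8% of cells with the most UMIs, each gave 2 list genes higher, and weighing each cell the same gave 0. Adding 10 CPM left 0 members lower, 0 list genes higher and 11 lower, 585 genes higher and 698 lower. A minimum of 50 CPM left 0 members lower, 8 list genes lower, 575 genes higher and 458 lower. Keeping cells with at least 500 genes and at most 10% mitochondrial UMIs left 1 member lower. In untreated astrocytes against neural stem cells, adding 0.5 CPM gave 1 member lower, Bmp4. Adding 10 CPM left 17 list genes higher and 14 lower, 1348 genes higher and 1181 lower, and a minimum of 50 CPM left 11 and 12 list genes and 997 and 732 genes in that order. A larger addition shrinks the ratio of low genes and a minimum tests fewer of them by construction, and for the other settings the cause was not tested. No paired analysis was possible because each group has 1 library. Depth limits Bmp4 in every library and Smad6 in MIM-treated astrocytes and neural stem cells.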
